A study of Mus musculus with 4 samples.

Results

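The 42 genes described here encode the machinery that folds and inspects proteins in the endoplasmic reticulum (ER), together with the sensors of the unfolded protein response. They were chosen by name from the deposited table of 14984 genes, all 42 were found there, and all 42 passed the filter on low counts. They were grouped by role as 5 sensors and linked genes, 12 chaperones and cochaperones, and 11 disulfide isomerases and oxidases. The rest were 11 genes of ER-associated degradation (ERAD) and 3 genes of the translocon. The group called sensors below holds the sensor genes Ern1, Eif2ak3 and Atf6. It also holds Mbtps1, whose product cuts ATF6, and Xbp1, whose mRNA is spliced by the product of Ern1. Ribosome footprints, the mRNA fragments that translating ribosomes shield from nuclease, had been sequenced from whole mouse testes at day 10. The groups were 2 control libraries, whose genotype is not given in the sources used here, and 2 libraries of Eif5 cKO testes, which came from mice obtained by crossing the Eif5fl/fl and Stra8-Cre lines. Stra8-Cre acts in germ cells around the onset of differentiation, so somatic cells of the testis kept Eif5 by design. The series title names sustained ER stress, and the comparison asked whether footprints on the genes of the ER stress response differed between the groups. Whether the libraries within a group represent different animals is not stated in the sources used here; p-values therefore cover nothing beyond the variation among these 4 libraries, which may be technical.

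Proteins that enter the secretory pathway are threaded through the Sec61 translocon, folded with the help of the chaperone BiP and its partners, and locked by disulfide bonds, while chains that fail to fold are returned to the cytosol for destruction by ERAD. When unfolded chains accumulate, the sensors IRE1, PERK and ATF6 are activated. IRE1 splices the Xbp1 mRNA, ATF6 is cut by Golgi proteases to release a transcription factor, and PERK phosphorylates eIF2 alpha, which lowers initiation in general and favours translation of Atf4. XBP1 and ATF6 then raise transcription of chaperone and ERAD genes.

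Many of these genes carry the ER stress response element (ERSE) in their promoters, and the matches are shown because ATF6 and XBP1 are known to act through this element. RefSeq promoter windows (GRCm38.p6, 250 bases before to 50 after the transcription start) were matched for 35 of the 42 members. The ERSE (CCAAT, then 9 open bases, then CCACG, on either strand) was present in 10 of these 35 (28.6%), against 37 of 27025 genes (0.137%) with a window of the same length. The matches below are written 5′ to 3′ on the strand of the gene with the element in capitals, and an element on the opposite strand appears as its reverse complement. They lie at chr2:34772015-34772053 (Hspa5, plus strand), chr10:86705628-86705666 (Hsp90b1, minus strand), chr8:84847065-84847103 (Calr, minus strand), chr15:88819510-88819548 (Creld2, plus strand), chr13:12565672-12565710 (Ero1lb, plus strand) and chr10:75893232-75893270 (Derl3, plus strand).
Hspa5: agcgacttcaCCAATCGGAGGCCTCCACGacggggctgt
Hsp90b1: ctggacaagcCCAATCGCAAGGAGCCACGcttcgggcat
Calr: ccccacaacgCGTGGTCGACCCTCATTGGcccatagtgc
Creld2: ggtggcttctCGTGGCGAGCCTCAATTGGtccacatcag
Ero1lb: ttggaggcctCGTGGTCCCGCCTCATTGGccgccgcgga
Derl3: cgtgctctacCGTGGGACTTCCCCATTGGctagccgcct
The Hspa5 element spans the bases 65 to 47 before the start. Hsp90b1 held another copy on the other strand, and Canx, Dnajc3, Pdia6 and Syvn1 held the remaining elements. The related ERSE-II (ATTGG, 1 open base, then CCACG, on either strand, its first bases being the reverse complement of CCAAT) was found in Herpud1 and Dnajb11, against 0.0444% of all genes. The element UPRE (TGACGTGG, on either strand) was found in Txndc5 and Vcp, against 0.714% of all genes. A match describes only the letters in these windows. The members were picked as known genes of this response, so a higher share than over all genes is no finding of these data.

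No member passed the test in either direction. limma, fitted to log2(value + 1) over 12095 genes with Benjamini-Hochberg adjustment at 0.05, called 0 of the 42 genes, against 0.678% of all genes tested (0.0744% higher and 0.604% lower in Eif5 cKO). It was likewise 0 on the recovered reads in edgeR, against 0.761% of all genes tested, and in limma-voom, against 0.827%. In DESeq2 it was also 0, against 0.704% of the 9515 genes given an adjusted p, and a gene without one could not be called. Within limma it was 0 with TMM factors (0.711% of all genes called), library totals (0.934%), scaling on a list of Sertoli cell markers (0.595%), a pseudocount of 0.5 (0.661%) or 4 (0.777%), no filter (0.601%), and a minimum of 50 reads in 2 libraries (0.91%), which left 39 members. With a library left out it was 0 without control replicate 1 (0.0827% of all genes called), control replicate 2 (0.165%) or Eif5 cKO replicate 2 (2.86%), and 1 without Eif5 cKO replicate 1 (1.05%). At an unadjusted p under 0.05 there were 5 members, Sdf2l1, Mbtps1, Creld2, Ero1l and Ero1lb, against 10.6% of all genes. The median log2 fold change of the members was -0.02, with 20 positive and 22 negative signs, and that of all genes tested was 0.003, with 50.3% positive. Scaling on the Sertoli markers moved the median of all genes by -0.46, and 3 members were then positive, so every sign below is relative to the deposited scaling. The groups did not overlap for 14 members, 33.3% of them, against 40.8% of all genes tested. They comprised 6 members that were higher in Eif5 cKO, against 20% of all genes, and 8 that were lower, against 20.9%. In whole testis, fewer cells of a type and fewer footprints per cell cannot be told apart.

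The precision of the comparison is given by the 95% intervals. For 31 of the 42 members (73.8%) the interval lay wholly inside a 2-fold change in either direction, against 47.1% of all genes tested. It lay inside a 1.5-fold change for 6 members (14.3%), against 6.61% of all genes tested. The intervals take the deposited scaling as given, and scaling on the Sertoli markers moved 39 members by more than their SE.

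**Figure D1:**
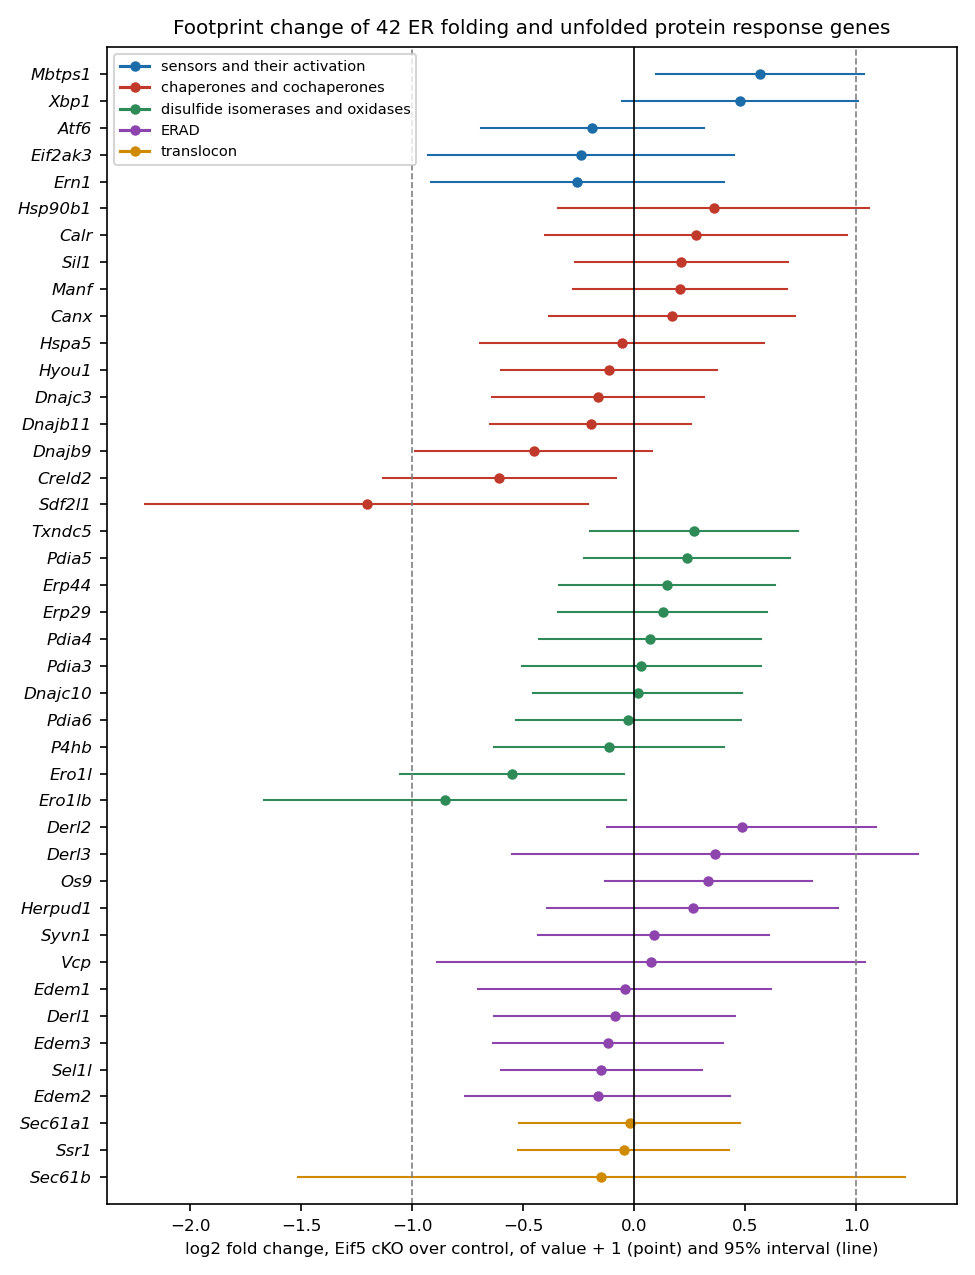
Log2 fold change of each of the 42 genes, Eif5 cKO over control on the scale of log2(value + 1), with its 95% interval from limma (n = 2 libraries a group), coloured by role. The dashed lines mark a 2-fold change; the intervals of Mbtps1, Creld2, Sdf2l1, Ero1l and Ero1lb leave out 0, and none of the 42 genes passed after adjustment over all genes.

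Read totals were 2934609 (replicate 1) and 2225964 (replicate 2) for control against 2296938 and 2782527 for Eif5 cKO. Values are reads divided by a size factor per library, as deposited. Eif5 itself had values of 365 and 304 in control against 173 and 266 in Eif5 cKO (log2 fold change -0.63, SE 0.25, limma adjusted p = 0.319). Germ cell markers were read from 4 lists. Of 7 tested genes of undifferentiated spermatogonia 0 were called. The 9 listed genes, untested ones included, had a summed value of 645 to 738 in control and 535 to 554 in Eif5 cKO. Of 6 genes of differentiating spermatogonia 2 were called lower, with 2073 to 2236 in control and 1096 to 1197 in Eif5 cKO. In a further list, 9 of 14 tested genes of meiotic prophase were called lower and 0 higher. The summed value of the 17 listed genes, untested ones included, was 3041 to 3472 in control and 1124 to 1272 in Eif5 cKO. Of 8 pan-germ-cell genes, 4 were called lower, and the summed value was 4602 to 4956 in control and 2182 to 2429 in Eif5 cKO.

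Among the sensors, the kinases themselves had negative log2 fold changes with wide intervals. Ern1, which encodes the nuclease-kinase IRE1, had 89.8 and 111 in control against 108 and 64.6 in Eif5 cKO. Eif2ak3, which encodes the eIF2 alpha kinase PERK, had 88.1 and 71.2 in control against 69.3 and 64.6 in Eif5 cKO. The groups overlapped for Ern1, and for Eif2ak3 both knockout libraries lay just under the lower control. The log2 fold changes were -0.26 (SE 0.33) for Ern1 and -0.24 (SE 0.34) for Eif2ak3, smaller than their standard errors. Their 95% intervals ran from -0.91 to 0.40 and from -0.93 to 0.45. The Ern1 value was -0.62 without Eif5 cKO replicate 1 and 0.11 without replicate 2. Atf6, the membrane-bound transcription factor, had 239 and 246 in control against 232 and 195 in Eif5 cKO. Both knockout values lay below the controls, by a log2 fold change of -0.19 (SE 0.25). 

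The other 2 genes of this group had their higher values in Eif5 cKO. Mbtps1 encodes the site-1 protease that makes the first cut in ATF6 and also processes the sterol-regulated factors. It had 706 and 869 in control against 1373 and 980 in Eif5 cKO. Its log2 fold change was 0.57 (SE 0.23, 95% interval 0.10 to 1.04, limma adjusted p = 0.338), and the groups did not overlap. Xbp1, the transcription factor whose mRNA IRE1 splices, had 149 and 135 in control against 210 and 186 in Eif5 cKO. Its log2 fold change was 0.48 (SE 0.26, limma adjusted p = 0.543). Gene totals do not separate spliced from unspliced Xbp1, and the splicing was not analysed here. With each library left out in turn, the log2 fold change ranged from 0.32 to 0.81 for Mbtps1 and from 0.39 to 0.56 for Xbp1.

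The chaperones included the members with the most footprints. The 5 with the highest control level, Hsp90b1, Calr, Hspa5, Canx and Pdia3, took 61.7% to 65.8% of the members' reads in each library. Values of different genes were not divided by length and are compared only between libraries. Hspa5 encodes BiP, the Hsp70 of the ER lumen and the classic marker of the unfolded protein response. It had 9180.2 and 10584 in control against 9798 and 9185 in Eif5 cKO. Every Hspa5 value in Eif5 cKO lay between the control values, with a log2 fold change of -0.06 (SE 0.32) whose 95% interval ran from -0.69 to 0.58. Hsp90b1, the ER paralog of Hsp90, had 11020.5 and 13115 in control against 17277 and 13726 in Eif5 cKO. Its groups did not overlap, but the gap between them was smaller than the spread within either, and the log2 fold change was 0.36 (SE 0.35, limma adjusted p = 0.766).

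The lectin chaperones, which hold glycoproteins while they fold, were high in Eif5 cKO replicate 1. Calreticulin (Calr) had 9413 and 11091 in control against 15541 and 9876 in Eif5 cKO. Calnexin (Canx), its membrane-bound counterpart, had 4060.04 and 5043 in control against 5445 and 4754 in Eif5 cKO. In both cases replicate 2 of Eif5 cKO lay between the controls. The log2 fold changes were 0.28 (SE 0.34) for Calr and 0.17 (SE 0.27) for Canx. Without Eif5 cKO replicate 1 the Calr value was -0.05, and without replicate 2 it was 0.61.

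The chaperone group also held the most negative fold change of the 42 genes, which rested on 1 library. Sdf2l1 encodes a small partner of BiP and ERdj3. It had 55.5 and 81.5 in control against 63.6 and 12.6 in Eif5 cKO, so replicate 1 lay inside the control range and replicate 2, with 14 reads, lay far below it. Its log2 fold change was -1.21 (SE 0.49, limma adjusted p = 0.338). It was -0.08 without Eif5 cKO replicate 2 and -2.33 without replicate 1. The latter was the single member call in any fit with a library left out (limma adjusted p = 8.06e-04), and there the remaining knockout library is assumed to vary like the others.

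Creld2, an ER protein strongly induced by ER stress in many cells, had 258 and 220 in control against 178 and 136 in Eif5 cKO. Both knockout values lay below both controls, with a log2 fold change of -0.61 (SE 0.26, 95% interval -1.13 to -0.08, limma adjusted p = 0.364). Dnajb9, the cochaperone ERdj4 that restrains IRE1 and is a well-known XBP1 target, had 193 and 265 in control against 143 and 190.2 in Eif5 cKO. The upper knockout value almost met the lower control, and the log2 fold change was -0.45 (SE 0.26, limma adjusted p = 0.569). The remaining 5 chaperone genes ranged from -0.20 for Dnajb11, the cochaperone ERdj3, to 0.21 for Sil1, a nucleotide exchange factor of BiP. They included Hyou1, another exchange factor (-0.11), Dnajc3, the PERK inhibitor p58IPK (-0.16), and Manf, a secreted protein retained by BiP (0.21).

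Among the members with disulfide roles, the ERO1 genes Ero1l and Ero1lb stood at the negative end and the others nearer 0. ERO1 enzymes pass oxidising equivalents from oxygen to protein disulfide isomerase. Ero1l (Ero1a in current naming) had 372 and 425 in control against 352 and 208 in Eif5 cKO. Ero1lb (Ero1b), a gene with 29 to 74 reads a library, had 60.4 and 68.9 in control against 32.9 and 37.7 in Eif5 cKO. For both genes the groups did not overlap, with replicate 1 close to the lower control in Ero1l and both knockout libraries well below the controls in Ero1lb. The log2 fold changes were -0.55 (SE 0.25, limma adjusted p = 0.407) for Ero1l and -0.85 (SE 0.40, limma adjusted p = 0.442) for Ero1lb. With each library left out in turn they ranged from -0.93 to -0.17 for Ero1l and from -0.95 to -0.76 for Ero1lb. Other redox genes of the ER, outside the members, had both signs. Negative ones were Prdx4 (-0.26), Qsox1 (-0.02) and Vkorc1 (-0.01), and positive ones Qsox2 (0.15), Gpx7 (0.46) and Gpx8 (0.47).

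Txndc5, a thioredoxin-domain isomerase, had 338 and 367 in control against 468 and 386 in Eif5 cKO, both above the controls (log2 fold change 0.27, SE 0.23). Pdia3, the isomerase that works with calnexin and calreticulin, had 3893 and 4559 in control against 4587 and 4038 in Eif5 cKO. Its groups overlapped, with a log2 fold change of 0.03 (SE 0.27). The other 7 genes of this group, P4hb (protein disulfide isomerase), Pdia4, Pdia5, Pdia6, Dnajc10 (the reductase ERdj5), Erp29 and Erp44, ranged from -0.11 to 0.24, all with overlapping groups. The smallest limma adjusted p among them was 0.766.

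Signs were mixed in the ERAD group, 6 positive and 5 negative, around a median of 0.08. Derl2, a derlin of the retrotranslocation channel, had 83.2 and 98.7 in control against 140 and 116 in Eif5 cKO. Both knockout values lay above the controls, with a log2 fold change of 0.48 (SE 0.30, limma adjusted p = 0.600). Os9, a lectin that presents misfolded glycoproteins to the ligase complex, had 485 and 663 in control against 782 and 654 in Eif5 cKO (log2 fold change 0.33, SE 0.23). Herpud1, a scaffold of the complex, had 83.2 and 94.1 in control against 147 and 77.2 in Eif5 cKO (0.26, SE 0.32). The groups overlapped for Os9 and for Herpud1, and for Herpud1 Eif5 cKO replicate 1 held the highest value and replicate 2 the lowest.

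The core ligase and its adaptor were close to 0. Syvn1, the ubiquitin ligase HRD1, had a log2 fold change of 0.09 (SE 0.26), and Sel1l, its adaptor, -0.15 (SE 0.22). The mannosidase-like genes Edem1, Edem2 and Edem3, which mark glycoproteins for disposal, had -0.04, -0.17 and -0.12. Derl1 had -0.09 and Derl3 0.36. Vcp, the ATPase that pulls chains into the cytosol, had 0.08, but its values of 24.1 to 46.5 are uncertain, since the table also lists the related sequence Vcp-rs and reads may have been split or dropped between near-identical copies.

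The 3 translocon genes all had overlapping groups. Sec61a1, the channel subunit, had 2139 and 2846 in control against 2405 and 2455 in Eif5 cKO. Ssr1, a subunit of the translocon-associated TRAP complex, had 1604 and 2034 in control against 1780.2 and 1714 in Eif5 cKO. For both genes the knockout libraries lay between the control libraries, with log2 fold changes of -0.02 (SE 0.25) and -0.05 (SE 0.24). Sec61b, the small tail-anchored subunit, had only 18.8 and 19.5 in control against 7.95 and 35.9 in Eif5 cKO, the latter from 7 and 40 reads. Its 95% interval of -1.52 to 1.22 leaves a change of more than 2-fold in either direction possible, and its log2 fold change was 0.87 without Eif5 cKO replicate 1 and -1.17 without replicate 2.

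Genes commonly placed under ATF6 and under XBP1 were set side by side. The 9 members commonly led by ATF6 (Hspa5, Hsp90b1, Hyou1, Calr, Pdia4, Creld2, Manf, Herpud1 and Sdf2l1) had a median log2 fold change of 0.07, with 5 positive signs. The 8 commonly led by XBP1 (Dnajb9, Dnajc3, Edem1, Derl2, Derl3, Sec61a1, Sec61b and Ssr1) had a median of -0.05, with 2 positive signs. Both medians depended on the libraries kept, running from -0.12 to 0.26 for the first list and from -0.20 to 0.15 for the second with a library left out, and without Eif5 cKO replicate 1 their order turned (-0.12 and -0.04). Among the 10 members with an ERSE in the promoter window, the median was 0.03, with 5 positive signs and a range of -0.85 (Ero1lb) to 0.36 (Derl3). It was -0.04 for the 25 members with a window and no ERSE.

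Between the libraries of a group, most members differed in the same direction. Of the 42 members, 37 (88.1%) had a higher value in control replicate 2 than in control replicate 1, against 49.9% of all genes tested. In Eif5 cKO, 32 members (76.2%) had a higher value in replicate 1 than in replicate 2, against 49.7% of all genes tested. The roles differed in this. Higher in control replicate 2 were all 11 disulfide isomerases and oxidases, 11 of 12 chaperones and 9 of 11 ERAD genes. So were 3 of 3 translocon genes, but only 3 of 5 sensors. Higher in Eif5 cKO replicate 1 were 11 of 12 chaperones, 9 of 11 disulfide genes and 5 of 5 sensors. The count there was only 6 of 11 for ERAD genes and 1 of 3 for translocon genes. As a share of each library's reads, the members took 2.51% (replicate 1) and 2.81% (replicate 2) in control against 3.06% and 2.60% in Eif5 cKO. These are counts within a group and carry no test.

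**Figure D2:**
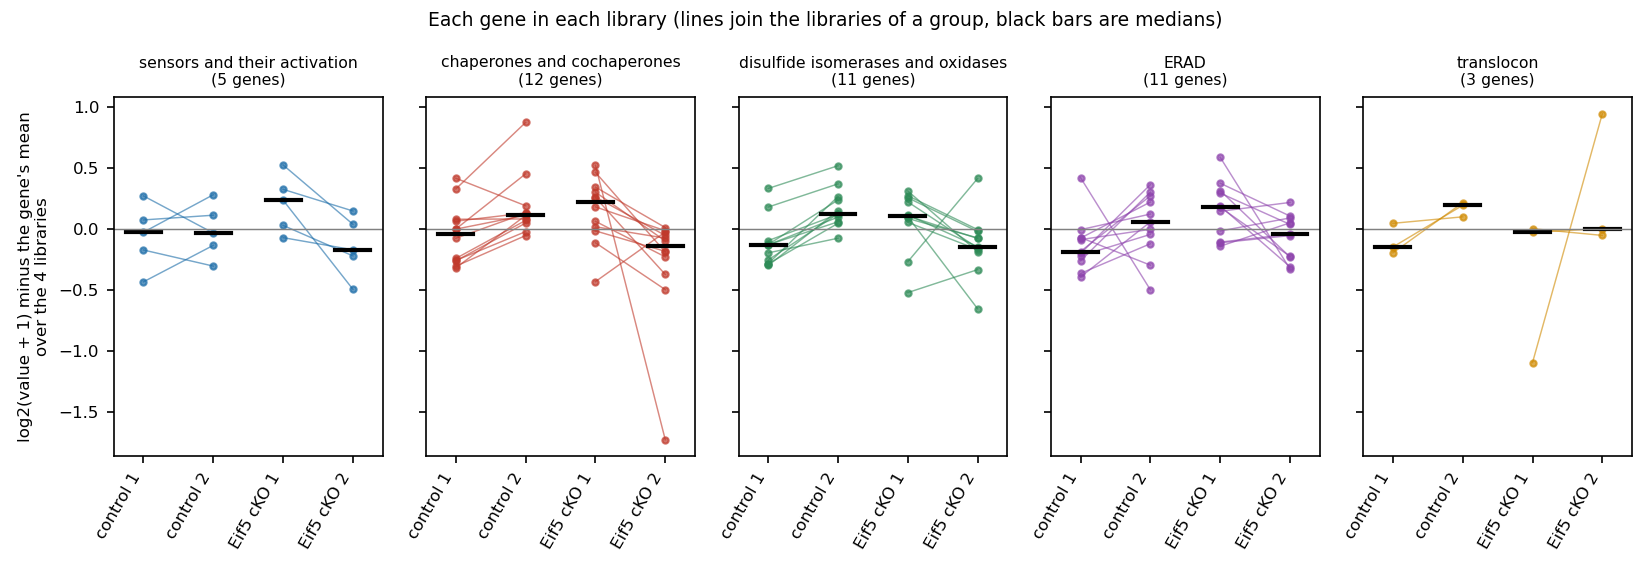
Each of the 42 genes in each of the 4 libraries, as log2(value + 1) minus the gene's own mean over the libraries, by role; lines join the libraries of a group and black bars are medians. Most lines slope up from control 1 to control 2 (37 of 42 genes) and down from Eif5 cKO 1 to Eif5 cKO 2 (32 of 42), and the isolated low point among the chaperones is Sdf2l1.

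The sign of the members' median depended on which libraries were kept. It was -0.15 without control replicate 1 and 0.13 without the other control, and -0.11 without replicate 1 of Eif5 cKO and 0.11 without its replicate 2, while the median of all genes stayed between -0.02 and 0.02. The chaperone median was -0.08 with all libraries and -0.16, -0.005, -0.18 and 0.10 in the same order. The sensor median was -0.19 with all libraries and 0.11 without Eif5 cKO replicate 2. The ERAD median became -0.12 without Eif5 cKO replicate 1. For the disulfide genes it was 0.03 with all libraries and between -0.12 and 0.16 with a library left out, and for the translocon -0.05 and between -0.22 and 0.12.

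**Figure D3:**
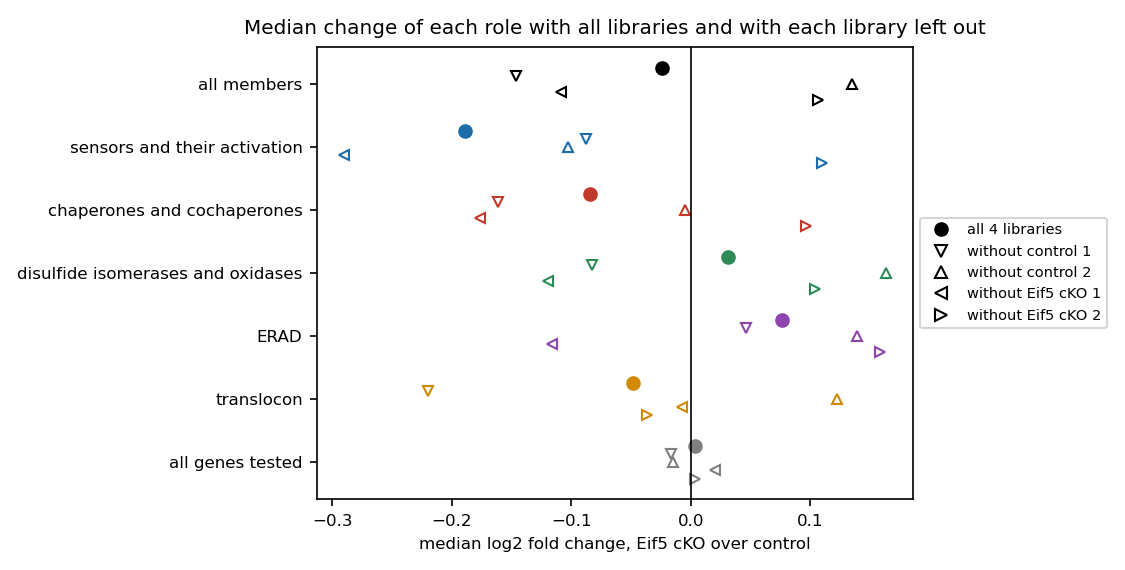
Median log2 fold change (Eif5 cKO over control) of all 42 members, of each role and of all 12095 genes tested, with all 4 libraries (filled) and with each library left out (open). The median of all members lies on either side of 0 depending on the library left out, from -0.15 to 0.13.

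Some lists of somatic cell markers, but not all, had the same order of libraries. The summed value of 13 Sertoli cell markers, of which 1 was called higher and 0 lower, was 58261 and 80875 in control against 112136 and 80068 in Eif5 cKO. Clu alone took 60.4% to 65.1% of that list's reads in each library. The 42 members summed to 60116 and 71905 in control against 79965 and 64833 in Eif5 cKO, so that control replicate 1 was lowest and Eif5 cKO replicate 1 highest in both sums. The 4 interstitial stroma markers did the same, with 16063 and 19718 in control against 23206 and 18971 in Eif5 cKO. The 7 Leydig cell markers summed to 1582 and 2025 in control against 2965 and 2588 in Eif5 cKO, with 0 called. They had the same lowest and highest library, but both Eif5 cKO sums lay above both control sums. Other somatic lists differed in order, also with 0 called: the 5 peritubular myoid markers summed to 5839 and 6080 in control against 5795 and 4634 in Eif5 cKO, the 9 macrophage markers to 1116 and 1361 against 1635 and 1718, and the 6 endothelial markers to 952 and 1082 against 1262 and 926. None of these 6 lists had a marker at 0 in any library. In a plasma cell list, a type rich in ER, Mzb1 and Jchain were not in the table, and the rest summed to 96.9 to 158. The part of cell composition in the values of the ER genes was not tested.

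**Figure D4:**
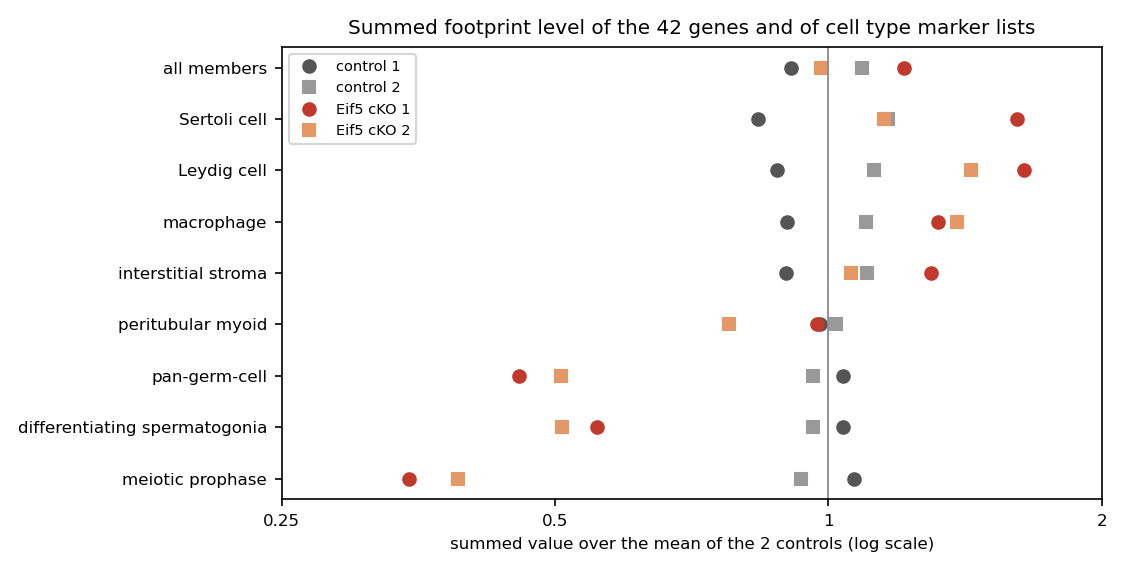
Summed value of the 42 genes and of cell type marker lists in each library, divided by the mean of the 2 controls, on a log axis. The 42 genes and the Sertoli, interstitial stroma and Leydig lists share their lowest library (control 1) and their highest (Eif5 cKO 1). The germ cell lists are lower in both Eif5 cKO libraries.

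Other genes of the same pathways were read from the same fit. Of 124 genes in 8 lists, 116 were in the table and 113 passed the filter, and limma called 0 of the 113, against 0.678% of all genes tested. At an unadjusted p under 0.05 there were 10 of the 113, against 10.6% of all genes tested, with 0 calls in edgeR, DESeq2 or limma-voom either. Their median log2 fold change was 0.10, and it was -0.004 without control replicate 1, 0.05 without Eif5 cKO replicate 1, 0.23 when control replicate 2 was dropped and 0.18 when Eif5 cKO replicate 2 was dropped. Without Eif5 cKO replicate 2, limma called 5 of them (Sec61a2 and Clgn lower, Creb3l1, Fkbp14 and Txndc15 higher), against 2.86% of all genes in that fit.

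In the list named after the PERK arm, the sign was positive for 6 of 7 tested genes and the median was 0.55, and 0 passed. The name follows the usual grouping of these genes, and whether PERK or another eIF2 kinase acted on them was not tested. Positive signs fell to 4 of 7 without Eif5 cKO replicate 1 or with scaling on the Sertoli list. They fell to 5 of 7 without control replicate 1 or with library totals. With at least 50 reads in 2 libraries the median was 0.05 over the 4 genes left, and it was 0.31 without control replicate 2. Atf4, the transcription factor whose translation phosphorylated eIF2 favours, had 70.2 and 112 in control against 168 and 177 in Eif5 cKO. Its log2 fold change was 0.95 (SE 0.29, limma adjusted p = 0.151). Ddit3, which encodes CHOP, had 25.3 and 21.8 in control against 44.3 and 61.9 in Eif5 cKO. Its log2 fold change was 1.12 (SE 0.46, limma adjusted p = 0.342). Gene totals do not show where on these mRNAs the footprints lie, and their positions were not analysed here. The groups did not overlap for 3 of the 7 tested genes (42.9%), Atf4 and Ddit3 among them, against 40.8% of all genes tested. With libraries scaled on the Sertoli list the median of this list was 0.09, which is 0.55 above that of all genes in the same fit. For the ATF6 and CREB3 family, 0 of 8 tested genes passed, with a median of 0.16. Creb3l1 and Creb3l2, membrane-bound relatives of ATF6 active in secretory cells, had log2 fold changes of 0.59 (SE 0.32) and 0.35 (SE 0.23). Creb3l1 had 86.5 and 94.1 in control against 195 and 95.1 in Eif5 cKO, and its value was 0.08 without replicate 1 of Eif5 cKO and 1.11 without replicate 2.

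All 17 other ER folding helpers, mostly prolyl isomerases, J-domain cochaperones and the collagen chaperone Serpinh1, had a positive log2 fold change; their median was 0.39, and 0 passed. With libraries scaled on the Sertoli list 3 of the 17 were positive and the median was -0.07, still 0.38 above that of all genes in that fit. The median was 0.17 without control replicate 1, with 14 of the 17 positive, 0.24 without Eif5 cKO replicate 1, and 0.45 without either of the others. Fkbp14, a prolyl isomerase of collagen folding, had 184 and 368 in control against 581 and 287 in Eif5 cKO (log2 fold change 0.65, SE 0.28), with overlapping groups and a range of 0.14 to 1.15 with a library left out. Ppic, another prolyl isomerase, had 0.46 (SE 0.23).

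Clgn and Sec61a2 had low values in both Eif5 cKO libraries. Clgn encodes calmegin, a calnexin relative needed in male germ cells, and had 108 and 87.2 in control against 23.9 and 65.5 in Eif5 cKO. Its log2 fold change was -1.27 (SE 0.40, limma adjusted p = 0.153), the lowest of 13 lectin and quality-control genes, whose median was 0.03. It was -0.56 without Eif5 cKO replicate 1, which had 21 reads, and -1.98 without replicate 2. Mlec, a lectin, had 0.27 (SE 0.23). Sec61a2, the paralog of the Sec61 channel subunit, had 140 and 194 in control against 72.7 and 101 in Eif5 cKO. Its log2 fold change was -0.93 (SE 0.30, limma adjusted p = 0.170), beside -0.02 for Sec61a1, and ranged from -1.17 to -0.69 with a library left out. For both genes every knockout value lay below every control, as did the germ cell marker sums given above, whose part in these values was not tested. The testis calreticulin gene Calr3, named after its values were seen, had -0.08 (SE 0.54) from 19.5 to 37.5.

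In the other lists 0 genes passed. Among 17 thioredoxin-fold and redox genes, with a median of 0.17, Txndc15 had 0.83 (SE 0.26, limma adjusted p = 0.153) and Sumf2 0.66 (SE 0.31), ranging with a library left out from 0.45 to 1.21 and from 0.34 to 0.97. Among 19 ERAD genes, with a median of 0.001, Herpud2 had 0.65 (SE 0.34) and Selk -0.87 (SE 0.51). Among 28 genes of the translocon, signal peptidase, signal recognition particle and oligosaccharyltransferase, with a median of -0.08, Srp14 had -0.49 (SE 0.22). Of 4 tested ER-phagy receptors, with a median of -0.13, Rtn3 had -0.53 (SE 0.23) and Tex264 0.30 (SE 0.27).

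**Figure D5:**
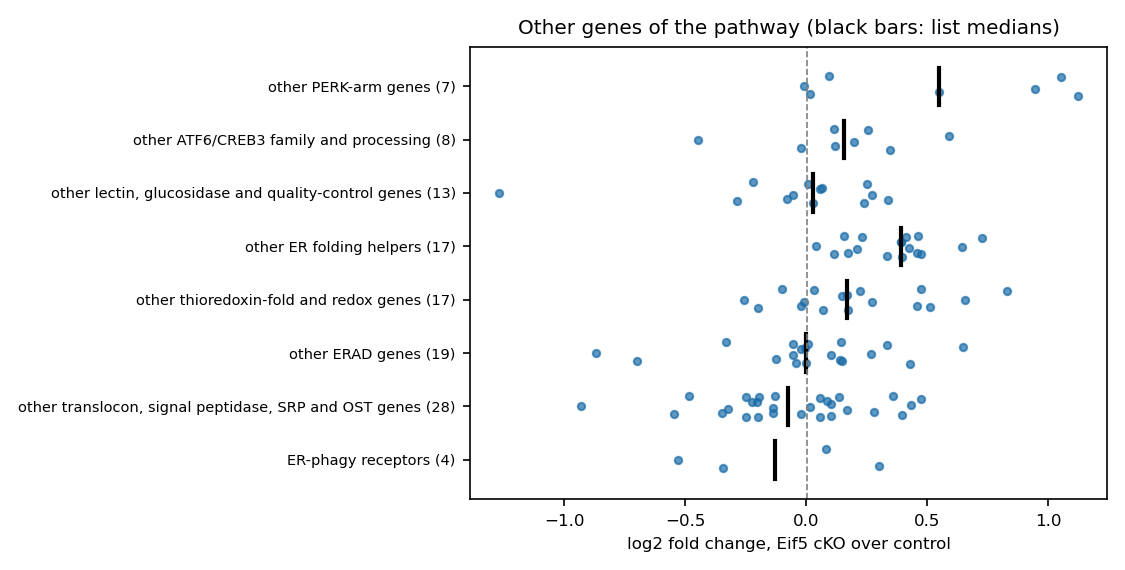
Log2 fold change (Eif5 cKO over control) of 113 other genes of the pathway in 8 lists, with list medians as black bars and the median of all genes tested as a dashed line. The medians of the PERK-arm list (0.55) and of the ER folding helpers (0.39) lie farthest from that line in this fit, the first being 0.05 over 4 genes under the stricter read filter, and none of the genes passed after adjustment over all genes.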

How the data were processed

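Footprints were prepared with a commercial kit, per the labels' protocols. The submitters' processing notes name Bowtie2, STAR, featureCounts and GRCm38 and give no versions; handling of multi-mapped reads and strand is not given in the sources used here. The deposited columns are named raw counts but hold a normalized signal: dividing by the step of 1 read gave whole numbers for 100% of values (tolerance 1e-06), and the divisors equalled median-of-ratios size factors. 0 columns belonged to other samples.

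limma 3.58.1 (R 4.3.3) modelled log2(value + 1) by group alone, with the trend option, over the 12095 genes passing the filter of edgeR 4.0.16 (minimum count 10) on recovered reads. Fold changes of low genes are understated on this scale. Tests were two-sided with Benjamini-Hochberg adjustment over all genes. A permutation of 2 against 2 libraries cannot give a p below 0.333, so the tests rest on a variance shared across genes (residual degrees of freedom 2, prior 37.0). On data simulated for this comparison (11757 genes), 17% of 100 genes changed 2-fold and 71% of 100 changed 4-fold were recovered, with 1 false call among 89.

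The members and lists were chosen with earlier results of these data known. The genes given with values in every library are the sensors, the 3 members of each role with the smallest p and the 5 with the highest control level; of the other lists, the 2 genes with the smallest p are named. Alternatives were edgeR, DESeq2 1.42.0, limma-voom, other scalings, pseudocounts and filters, a replicate block, other thresholds and each library left out. RNA libraries were not analysed here, so translational efficiency was not computed.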

Additional observations from a re-analysis of the deposited data

How the results depend on the processing

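limma, limma-voom, edgeR and DESeq2 called 0 members under every alternative run, except limma without Eif5 cKO replicate 1, so that the range with a library left out was 0 to 1. Over all genes the count of 82 became 10 to 346 with a library left out, 149 at an adjusted p under 0.1 and 37 under 0.01. With libraries scaled on the Sertoli list the medians moved to -0.49 for all members, -0.65 for sensors, -0.55 for chaperones, -0.43 for disulfide genes, -0.38 for ERAD and -0.51 for the translocon. All genes moved by -0.46 there, the members' median lay -0.04 from that of all genes, and 17 members changed sign. With a library left out the range was -0.15 to 0.13 for all members, -0.29 to 0.11 for sensors and -0.12 to 0.16 for ERAD. The labels do not say whether same-numbered libraries were paired, and the correlation of their deviations (-0.05) cannot settle it. With the replicate numbers as a replicate block 0 members and 100 genes were called. Library totals changed the sign of 2 members, edgeR and DESeq2 of 3 each, and limma-voom, TMM factors, the pseudocounts and the filters of 0. The cause was not tested. Low values limit Sec61b, Derl3, Vcp, Sdf2l1, Ero1lb and Eif2ak3, each under 100 in every library. Whether depth, mapping or low expression set these values was not tested.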

Other observations

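Ratios of 2 members within a library do not depend on how the libraries are scaled, and 3 such ratios were computed after the values were seen, without a test. The Hsp90b1 to Hspa5 ratio of values, GRP94 to BiP, was 1.20 and 1.24 in control against 1.76 and 1.49 in Eif5 cKO. The Xbp1 to Atf6 ratio was 0.621 and 0.551 in control against 0.907 and 0.954 in Eif5 cKO. Both Xbp1 values in Eif5 cKO lay above the controls and both Atf6 values below them, so this ratio had to separate the groups. Ratios of other pairs were not computed, so how often such ratios separate is not known. For the Calr to Canx ratio the groups overlapped, with 2.32 and 2.20 in control against 2.85 and 2.08 in Eif5 cKO.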
